A study of Mus musculus with 28 samples.

Results

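The 10 genes described here act in the endoplasmic reticulum (ER) and were measured by RNA sequencing in 28 libraries from macrophages grown from mouse bone marrow. They were the chaperones Hspa5 and Hsp90b1, the disulfide isomerase Pdia4, the co-chaperones and folding factors Dnajb9, Dnajc3, Sdf2l1, Creld2 and Manf, the ER-associated degradation factor Herpud1 and the transcription factor Xbp1. The 10 members were taken by gene symbol from the 56951 gene identifiers that the 2 count tables hold together, and all 10 passed the filter on low counts in both experiments, among 13998 and 15429 tested genes. The set was chosen by measured values of these data: it was drawn up because Herpud1 and Trib3 had opposite signs in the second experiment, in the difference between the fenofibrate effects in the 2 genotypes. Values of that difference and of the group pairs that make it up are therefore given as a description, with no test.

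When unfolded proteins accumulate in the ER, the sensors IRE1, ATF6 and PERK start the unfolded protein response. IRE1 removes a short intron from the Xbp1 messenger RNA, and the resulting transcription factor, with the cleaved form of ATF6, raises chaperones and degradation factors such as the 10 members. PERK phosphorylates the translation factor eIF2α and so favours translation of Atf4, whose targets include Ddit3 (also called CHOP) and Trib3. Other kinases that sense amino acid shortage or viral RNA act on Atf4 in the same way, so Atf4 targets can move without the chaperones.

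Irgm1 encodes an interferon-inducible GTPase, and IFNAR is the type I interferon receptor. The first experiment compared Irgm_IFNAR-KO cells, which lack both Irgm1 and IFNAR, Irgm1-KO cells and WT (C57BL/6) cells, and its stated question was which effects of Irgm1 loss depend on type I interferon. The second compared Irgm1KO cells with fenofibrate, Irgm1KO control cells, WT cells with fenofibrate and WT control cells. There were 4 libraries in each of the 7 groups. Per the labels, both mutant lines were backcrossed to C57BL/6, all cells came from male and female mice 2 to 4 months old, and marrow was cultured in medium conditioned by L929 cells for 6 days before 24 h without it. Fenofibrate, a lipid-lowering agonist of the nuclear receptor PPARα, was used at 50 µM, but the sources used here give neither how long it was applied nor what control cells received. No label names the animal behind a library, and a p-value here is set against the spread among the sequenced libraries alone, which may be technical.

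Library totals were 48.7 to 70.5 M counts (first experiment) and 82.4 to 121 M counts (second experiment). All 10 macrophage markers looked at, Lyz2, Csf1r and Adgre1 among them, were above 1 CPM (counts after scaling each library to 1 M) in every group, and T and NK cell markers summed to at most 0.0313 CPM per library in the second experiment. The mutant alleles left reads on their genes. Irgm1 averaged 716 ± 73.5 CPM in Irgm_IFNAR-KO, 760.4 ± 92.0 CPM in Irgm1-KO and 1293 ± 74.4 CPM in WT libraries (SD, n = 4 each). Ifnar1 lay at 53.1 to 114 CPM in Irgm_IFNAR-KO and 128 to 141 CPM in WT libraries, a difference that did not pass edgeR's quasi-likelihood test (adjusted p = 0.119).

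Promoters of 5 members held an exact match to an element through which ATF6 and XBP1 are known to act. The ER stress response element (ERSE) reads CCAAT, then any 9 bases, then CCACG, and its first and last parts are known to bind NF-Y and ATF6 or XBP1. The shorter ERSE-II reads ATTGG, any 1 base, then CCACG; its ATTGG is the reverse complement of CCAAT. RefSeq promoters of 300 bases (250 before and 50 from the transcription start, build GRCm38.p6) were matched for 9 of the 10 members, and both strands were searched. Stretches that hold a match are shown 5′ to 3′ along the gene, to set the element of each member beside its expression, with the ERSE or ERSE-II in capitals.
Hspa5, chr2:34772000-34772068, plus strand: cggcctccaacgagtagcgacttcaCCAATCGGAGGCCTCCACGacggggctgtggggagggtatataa
Hsp90b1, chr10:86705508-86705681, minus strand: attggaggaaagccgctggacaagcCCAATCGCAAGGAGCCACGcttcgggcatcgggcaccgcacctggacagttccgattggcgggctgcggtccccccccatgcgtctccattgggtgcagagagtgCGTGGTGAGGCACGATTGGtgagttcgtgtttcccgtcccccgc
Dnajc3, chr14:118937802-118937870, plus strand: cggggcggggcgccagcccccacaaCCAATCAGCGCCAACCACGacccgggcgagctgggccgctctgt
Creld2, chr15:88819495-88819563, plus strand: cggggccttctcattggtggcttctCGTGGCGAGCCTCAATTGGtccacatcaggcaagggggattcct
Herpud1, chr8:94386352-94386412, plus strand: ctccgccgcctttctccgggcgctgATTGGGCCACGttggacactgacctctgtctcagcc

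An exact ERSE was found in 4 of the 9 promoters, those of Hspa5, Hsp90b1, Dnajc3 and Creld2, and in 0.119% of all 32851 promoters in the table. Hsp90b1 held 2 copies, the copy nearer the start lying on the opposite strand, as did the copy of Creld2. An ERSE-II was found in the Herpud1 promoter and in 0.0365% of all promoters. The Herpud1 promoter also matched TGATGNAA, a spelling of the C/EBP-ATF response element through which ATF4 is known to act, which 3.97% of all promoters held. TGACGTGG, a spelling of the XBP1-bound unfolded protein response element, was in none of the 9 promoters and in 0.676% of all promoters. The windows of Xbp1, Dnajb9, Sdf2l1 and Pdia4 held no exact match to any of these spellings, which says only that these letters are not in these windows. For Xbp1, Pdia4, Dnajc3 and Herpud1, the bases just after the start were not found in the early part of a GENCODE M21 transcript of the gene. Their starts, and the offsets counted from them, are therefore less certain.

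**Figure D1:**
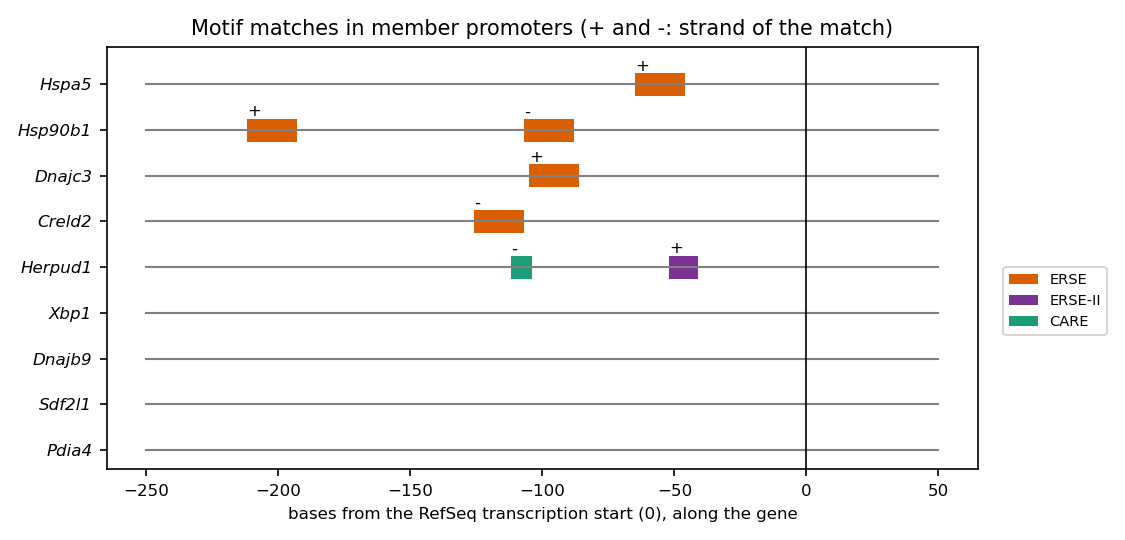
Positions of motif matches along the 9 member promoters, in bases from the RefSeq transcription start. Each bar is a match (colour: element), with its strand above it; 4 promoters hold an ERSE, Hsp90b1 with 2 copies, and Herpud1 holds an ERSE-II and a C/EBP-ATF response element (CARE).

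Per length of gene, Hspa5 and Hsp90b1 were the highest of the 10 members in every group. In WT libraries of the first experiment, Hspa5 stood at 612 ± 146 CPM per kb of exon, Hsp90b1 at 368 ± 15.8, Sdf2l1 at 216 ± 60.4, Xbp1 at 116 ± 26.3, Pdia4 at 99.5 ± 7.52 and Manf at 87.3 ± 22.9 (SD, n = 4). Dnajc3 at 38.7 ± 2.37, Creld2 at 37.1 ± 6.59, Dnajb9 at 32.0 ± 8.40 and Herpud1 at 30.6 ± 1.17 CPM per kb lay within 1 SD of a neighbour in this order, as did Xbp1, Pdia4 and Manf. Exon lengths came from the GENCODE M21 annotation, which is on another build than the counts, so these levels are approximate.

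In Irgm1-KO macrophages, the members split into a part that fell and a part that did not pass the test. Against WT, 6 of the 10 members fell, and none rose. Dnajc3, Sdf2l1 and Herpud1 fell to about 0.5 of the WT level, with fitted folds of 0.483, 0.492 and 0.557. Manf, Pdia4 and Hsp90b1 fell less, with folds of 0.689, 0.728 and 0.885. Over all tested genes the shares were 20.7% lower and 19.8% higher. The median log2 fold change was -0.46 over the members and -0.02 over all genes, and all 10 members had negative values.

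Among the folding enzymes and chaperones, Hspa5 (BiP), the main HSP70 chaperone of the ER lumen, had 1654, 1722, 2818 and 1821 CPM in Irgm1-KO libraries, against 1744, 3038, 2331 and 2083 CPM in WT libraries. The groups overlapped, since Irgm1-KO replicate 3 lay above 3 of the 4 WT libraries, and the log2 fold change of -0.20 ± 0.19 (SE) did not pass edgeR's test (adjusted p = 0.441). Hsp90b1 (GRP94), the ER's HSP90, which macrophages need to fold Toll-like receptors, had 901, 918, 973 and 889 CPM in Irgm1-KO libraries and 984, 1030.5, 1057 and 1089 CPM in WT libraries. Every Irgm1-KO library was below every WT library, by a small step (log2 -0.18 ± 0.06, edgeR adjusted p = 0.0377). Pdia4 (ERp72), which forms and rearranges disulfide bonds, had 158, 169, 196 and 171 CPM in Irgm1-KO libraries and 219, 262, 239.9 and 234 CPM in WT libraries, again with no overlap (log2 -0.46 ± 0.08, edgeR adjusted p = 0.000802).

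Among the co-chaperones and folding factors, Dnajc3 (p58IPK), a J-domain partner of Hspa5 in the ER lumen, gave the lowest p of the 10 members. It had 96.7, 94.3, 95.3 and 98.4 CPM in Irgm1-KO libraries, against 212, 183, 204 and 198 CPM in WT libraries. The spread within each group was narrow beside the gap between them (log2 -1.05 ± 0.07, edgeR adjusted p = 3.13e-07). Sdf2l1, which works with ER J-domain proteins to keep clients soluble, had 97.3, 97.7, 162 and 115 CPM in Irgm1-KO libraries and 185, 336, 229 and 207 CPM in WT libraries (log2 -1.02 ± 0.21, edgeR adjusted p = 0.0021). Both groups spread widely for Sdf2l1, yet the highest Irgm1-KO library was below the lowest WT library.

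Manf, a secreted and ER-resident protein that binds Hspa5, had 123, 129, 199 and 142 CPM in Irgm1-KO libraries and 161, 294, 211 and 195 CPM in WT libraries. These groups overlapped, and the log2 fold change of -0.54 ± 0.20 passed edgeR's test narrowly (adjusted p = 0.0462). Dnajb9 (ERdj4), a J-domain protein that holds IRE1 in check through Hspa5, had 48.8, 49.9, 75.6 and 53.9 CPM in Irgm1-KO libraries and 58.5, 106, 81.6 and 68.4 CPM in WT libraries (log2 -0.46 ± 0.18, edgeR adjusted p = 0.0645). Creld2, an ER protein induced by ER stress, was within 43.3 to 57.8 CPM in Irgm1-KO and 41.8 to 63.1 CPM in WT libraries, with a log2 fold change of -0.07 ± 0.13 (edgeR adjusted p = 0.723). Neither Dnajb9 nor Creld2 passed the test.

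Herpud1, a membrane protein that helps to assemble the HRD1 degradation complex, had 29.0, 32.8, 35.6 and 35.8 CPM in Irgm1-KO libraries and 57.9, 61.4, 62.1 and 57.8 CPM in WT libraries. The groups lay far apart with little spread in either (log2 -0.84 ± 0.08, edgeR adjusted p = 5.25e-06). Xbp1 itself had 211, 225, 317 and 238 CPM in Irgm1-KO libraries and 212, 362, 283 and 255 CPM in WT libraries (log2 -0.16 ± 0.17, edgeR adjusted p = 0.486), and the groups overlapped. Counts per gene do not separate the spliced from the unspliced Xbp1 transcript. In all, 5 members (Dnajc3, Sdf2l1, Herpud1, Pdia4 and Hsp90b1) were lower in Irgm1-KO with no overlap between the groups, as were 17.5% of all tested genes. In RNA of whole cultures, fewer cells of a type and less RNA per cell cannot be told apart.

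**Figure D2:**
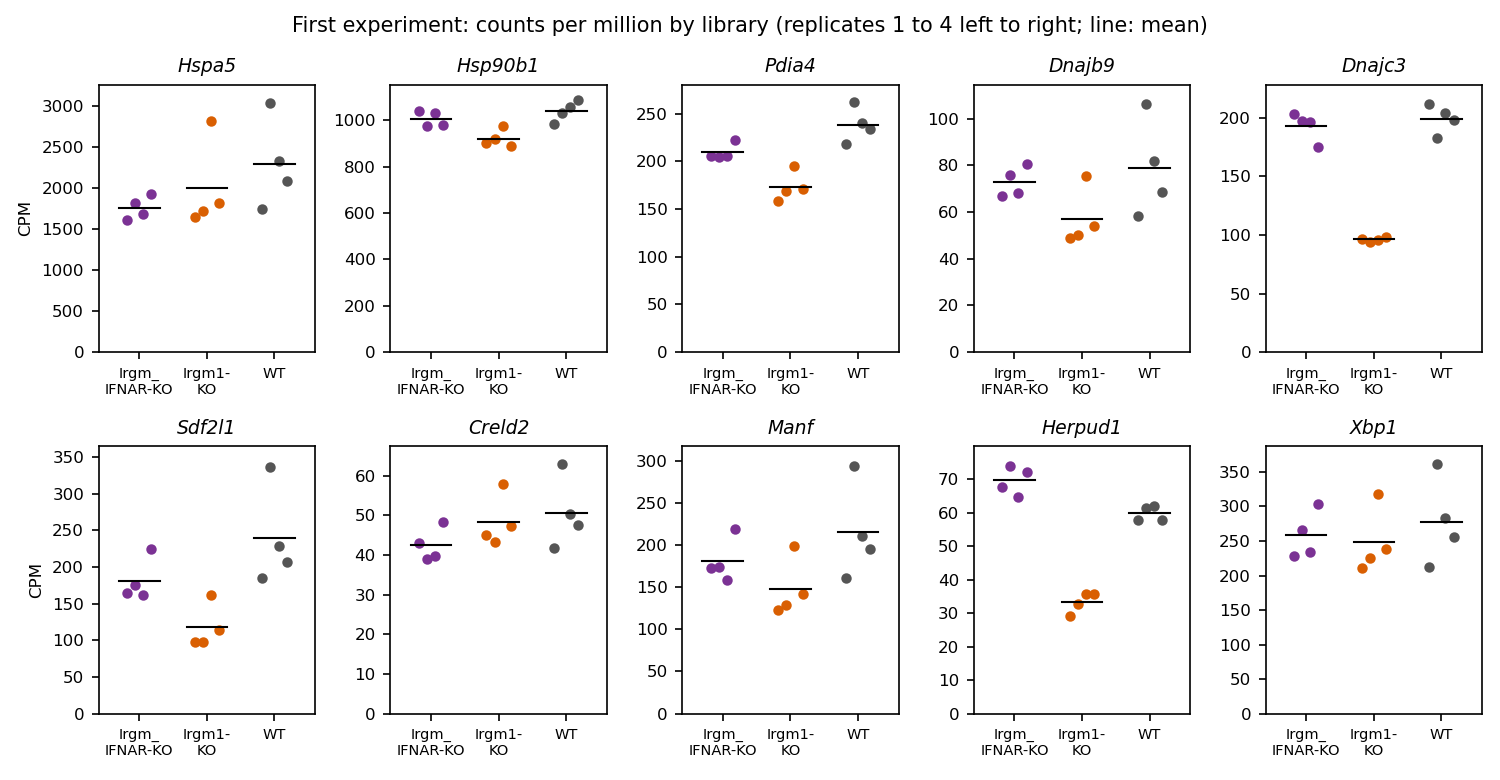
CPM of each member in the 12 libraries of the first experiment, by group, with replicates 1 to 4 from left to right and a line at the mean. Dnajc3 and Herpud1 are low and tightly grouped in Irgm1-KO, while Hspa5, Xbp1 and Creld2 overlap between all groups.

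Loss of IFNAR on top of Irgm1 was accompanied by higher levels of Dnajc3, Sdf2l1 and Herpud1, which had fallen most, and of Pdia4. Against Irgm1-KO, 4 members rose in Irgm_IFNAR-KO and none fell, while 21.5% of all tested genes rose and 21.3% fell. Herpud1 rose by 1.06 ± 0.08 on the log2 scale (edgeR adjusted p = 5.63e-07), with 67.8, 73.9, 64.8 and 72.1 CPM in Irgm_IFNAR-KO libraries. Dnajc3 rose by 1.01 ± 0.07 (edgeR adjusted p = 3.21e-07), with 203, 198, 197 and 175 CPM in Irgm_IFNAR-KO libraries. Every Irgm_IFNAR-KO library was about 2 times as high as the Irgm1-KO mean for both genes. Sdf2l1, with 164, 175, 162 and 224 CPM in Irgm_IFNAR-KO libraries, rose by 0.62 ± 0.21 (edgeR adjusted p = 0.0314), and Pdia4, with 205, 204, 206 and 223 CPM, rose by 0.27 ± 0.08 (edgeR adjusted p = 0.0194). The groups overlapped for Sdf2l1, by Irgm1-KO replicate 3, and not for Pdia4.

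Of the other members, Hsp90b1 had 1042, 976, 1031 and 979.6 CPM in Irgm_IFNAR-KO libraries, all above Irgm1-KO, with a log2 value of 0.13 ± 0.06 (edgeR adjusted p = 0.11). Non-overlap with higher Irgm_IFNAR-KO levels thus held for 4 members (Herpud1, Dnajc3, Pdia4 and Hsp90b1), and for 21.2% of all tested genes. Dnajb9 (log2 0.35 ± 0.18), Manf (0.29 ± 0.20), Xbp1 (0.06 ± 0.17), Creld2 (-0.18 ± 0.13) and Hspa5 (-0.18 ± 0.19) did not pass the test. The median over the members was 0.28, and 0.02 over all genes. This comparison and the previous one share the Irgm1-KO libraries, so their values are not independent of each other.

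Against WT, no member passed the test in Irgm_IFNAR-KO, where 3.94% of all tested genes rose and 8.22% fell. At an unadjusted p under 0.05, edgeR picked Herpud1 (log2 0.22 ± 0.08, adjusted p = 0.108) and Pdia4 (log2 -0.19 ± 0.08, adjusted p = 0.199), and the DESeq2 test called 1 member, Herpud1, higher. Of the 10 members, 9 had values below 0, down to -0.40 ± 0.21 for Sdf2l1 (adjusted p = 0.3) and -0.38 ± 0.19 for Hspa5 (adjusted p = 0.269), and their median was -0.15, against 0.01 over all genes. Dnajc3 averaged 193 ± 12.4 CPM in Irgm_IFNAR-KO and 199 ± 12.2 CPM in WT libraries (SD, n = 4 each), a log2 difference of -0.04 ± 0.07. The wider SE of Sdf2l1 and Hspa5 leaves room for a difference that 4 libraries a group did not resolve.

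**Figure D3:**
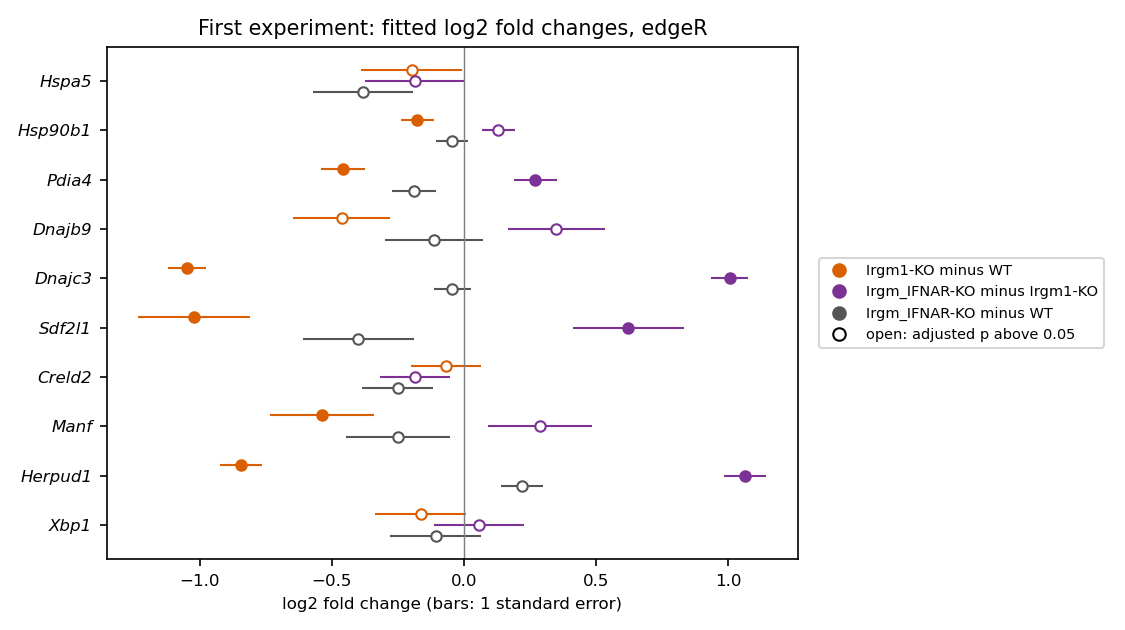
Fitted log2 fold changes of the 10 members in the 3 comparisons of the first experiment, with bars of 1 standard error and filled points where the adjusted p was under 0.05. Herpud1, Dnajc3 and Sdf2l1 lie far below 0 in Irgm1-KO against WT, above 0 in Irgm_IFNAR-KO against Irgm1-KO, and no point is filled in Irgm_IFNAR-KO against WT.

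Within groups, most members shared their high libraries. In the first experiment, Irgm_IFNAR-KO replicate 4 was the highest of its group for 7 of the 10 members, Irgm1-KO replicate 3 for 8, and WT replicate 2 for 7. The highest library stood above the lowest by up to 1.7 times in Irgm1-KO (Hspa5) and 1.82 times in WT (Manf, Sdf2l1 and Dnajb9), but only 1.04 times in Irgm1-KO and 1.16 times in WT for Dnajc3. These 3 libraries also had the least Xist in their groups, at 97.2, 97.9 and 50.8 CPM, against 50.8 to 231 CPM over the experiment. Whether this accounts for the spread was not tested, but log2 Xist was tried as a covariate. With it, 7 members fell in Irgm1-KO against WT, and 7 rose and 1 fell in Irgm_IFNAR-KO against Irgm1-KO. More of all tested genes rose in both comparisons too, as given with the alternatives below. Without WT replicate 2 and Irgm1-KO replicate 3, a choice made after seeing the data, 7 members fell in Irgm1-KO against WT and 7 rose in Irgm_IFNAR-KO against Irgm1-KO. Dnajb9 joined those that fell (log2 -0.45, edgeR adjusted p = 0.00925), and Hsp90b1, Dnajb9 and Manf joined those that rose, with log2 values of 0.16, 0.51 and 0.46. Calls over all genes grew as well when Irgm1-KO replicate 3 alone was left out. Then 3143 genes fell in Irgm1-KO against WT (main value 2893) and 3194 rose in Irgm_IFNAR-KO against Irgm1-KO (main value 3014). The counts over all genes with both libraries left out are not reported here.

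Leaving out single libraries, 4 to 7 members fell in Irgm1-KO against WT, and Hsp90b1 and Manf were the calls that were lost. Hsp90b1 passed in only 3 and Manf in only 2 of these 8 fits. Between 2 and 5 rose in Irgm_IFNAR-KO against Irgm1-KO. Only 2 rose, Herpud1 and Dnajc3, without Irgm_IFNAR-KO replicate 4, or without Irgm1-KO replicate 1, 2 or 4.

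Markers of other cells also differed between the groups. The macrophage list summed to 29295 to 40438 CPM in Irgm_IFNAR-KO, 9751 to 14855 CPM in Irgm1-KO and 21867 to 41867 CPM in WT libraries, led by the lysozyme gene Lyz2, while Csf1r did not pass the test between Irgm1-KO and WT (log2 -0.18, edgeR adjusted p = 0.248). Plasma cells use this chaperone program heavily, and the list of 11 plasma and B cell markers, of which 5 passed the filter, summed to 195 to 208 CPM in Irgm_IFNAR-KO, 33.8 to 55.3 CPM in Irgm1-KO and 178 to 225 CPM in WT libraries. Most of it was Ighm, at 192 ± 5.18, 31.2 ± 8.93 and 189 ± 17.7 CPM (in Irgm_IFNAR-KO, Irgm1-KO and WT; SD, n = 4 each). Of the B cell receptor genes, Cd79b was at 0.352, 0.632 and 1.26 CPM and Igkc at 0.116, 0.366 and 0.16 CPM in the same groups. In the second experiment Mzb1 was at 0 in all 16 libraries, and Jchain, Cd79a, Ms4a1 and Pax5 averaged at most 0.0571 CPM in any group. Of the 6 markers of plasmacytoid dendritic cells, 3 were in the count table of the first experiment and 2 passed the filter. Every gene in that table reached at least 10 counts in some library, so a gene absent from it may still have had a few counts. The sum of these markers, led by Pacsin1, went the other way, with 1.55 to 2.03 CPM in Irgm_IFNAR-KO, 16.1 to 18.8 CPM in Irgm1-KO and 3.19 to 4.00 CPM in WT libraries. Those of conventional dendritic cells summed to 57.7 to 65.7 CPM in Irgm_IFNAR-KO, 21.6 to 26.0 CPM in Irgm1-KO and 46.0 to 54.3 CPM in WT libraries, and those of neutrophils to 14.9 to 24.7, 5.16 to 9.38 and 15.1 to 38.8 CPM in the same groups. The part of these markers in the levels of the members was not tested.

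The other genes of the pathway were taken from 7 lists of 126 genes in all, chosen with earlier results known. Of 29 tested further ER folding genes, 3 rose and 13 fell in Irgm1-KO against WT (median log2 -0.31), and 8 rose and 4 fell in Irgm_IFNAR-KO against Irgm1-KO (median 0.20). Over all tested genes, 19.8% rose and 20.7% fell in the former comparison, and 21.5% rose and 21.3% fell in the latter. Uggt1, the glucosyltransferase that returns misfolded glycoproteins to the calnexin cycle, fell to 121 ± 13.4 CPM in Irgm1-KO against 244 ± 36.2 CPM in WT libraries (log2 -1.01 ± 0.13, edgeR adjusted p = 5.78e-05), and averaged 227 ± 27.4 CPM in Irgm_IFNAR-KO. Spcs3, a signal peptidase subunit, likewise averaged 230.1 ± 23.5 CPM in Irgm_IFNAR-KO, 113 ± 17.1 CPM in Irgm1-KO and 229.8 ± 41.7 CPM in WT libraries. Prdx4, the ER peroxiredoxin, differed from these: it averaged 65.9 ± 10.4 CPM in Irgm_IFNAR-KO, 127 ± 23.2 CPM in Irgm1-KO and 126 ± 48.2 CPM in WT libraries, and fell in Irgm_IFNAR-KO against both (edgeR adjusted p = 0.00553 against Irgm1-KO and 0.0192 against WT).

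The degradation genes did not follow Herpud1 as a group: of 21 tested, 6 rose and 3 fell in Irgm1-KO against WT (median 0.10). For this and the next 2 lists, the shares of all tested genes to set beside the counts were 19.8% higher and 20.7% lower. Erlec1, a lectin of the degradation pathway, was up by 0.62 ± 0.10 (edgeR adjusted p = 0.000427). Of 31 tested translocation and secretion genes, 1 rose and 5 fell (median -0.13). Among 10 tested sensors and factors, 3 rose and 4 fell. Creb3l2, an ER-bound transcription factor, fell to 12.5 ± 1.97 CPM in Irgm1-KO against 27.3 ± 6.32 CPM in WT libraries (log2 -1.12 ± 0.19, edgeR adjusted p = 0.000449). Eif2ak3, which encodes PERK, averaged 42.6 ± 4.96 CPM in Irgm_IFNAR-KO and 19.0 ± 2.40 CPM in Irgm1-KO libraries (log2 1.16 ± 0.13, edgeR adjusted p = 2e-05).

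The ATF4 arm went the other way. In Irgm1-KO against WT, 16 of its 18 tested genes rose and 2 fell (median log2 1.14), while 1 rose and 15 fell in Irgm_IFNAR-KO against Irgm1-KO (median -1.21). Of all tested genes, 19.8% rose and 20.7% fell in the former comparison, and 21.5% rose and 21.3% fell in the latter. Trib3 averaged 3.55 ± 0.436 CPM in Irgm_IFNAR-KO, 38.5 ± 3.33 CPM in Irgm1-KO and 2.48 ± 0.538 CPM in WT libraries. Ddit3 averaged 6.66 ± 0.641 CPM in Irgm_IFNAR-KO, 53.8 ± 4.21 CPM in Irgm1-KO and 15.3 ± 1.21 CPM in WT libraries, so that it was lower in Irgm_IFNAR-KO than in WT (log2 -1.20 ± 0.09, edgeR adjusted p = 5.79e-06). Atf4 rose by 1.82 ± 0.10 in Irgm1-KO against WT (edgeR adjusted p = 4.98e-08), and Asns, asparagine synthetase, by 3.06 ± 0.11 (edgeR adjusted p = 4.38e-09). Trib3 was part of the choice of the members, which rested on values of the second experiment. The members and the lists were chosen with earlier results of these data known, so their opposite movement here is no independent check.

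In the second experiment, the fitted log2 values with fenofibrate were above 0 in Irgm1KO cells and below 0 in WT cells for all 10 members, though in Irgm1KO cells those of Hspa5 (0.06 ± 0.07) and Creld2 (0.09 ± 0.07) were about as large as their SE. The fitted difference between the fenofibrate effects, Irgm1KO minus WT, was above 0 for 10 of 10 members, with a median of 0.73 on the log2 scale. It ran from 0.34 ± 0.06 for Xbp1 to 1.18 ± 0.10 for Sdf2l1, and was 1.04 ± 0.07 for Herpud1 and 1.00 ± 0.11 for Dnajc3. For Trib3 it was -3.72 ± 0.39, for Ddit3 -1.66 ± 0.24 and for Atf4 -1.44 ± 0.18. Of all 15429 tested genes, 14.9% passed edgeR's test above 0 and 14.7% below 0. Since this difference chose the members, their count is no evidence about them.

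Herpud1, the gene that prompted the choice of the members, had 51.3, 51.9, 51.8 and 52.8 CPM in Irgm1KO fenofibrate libraries and 34.3, 33.3, 33.8 and 33.9 CPM in Irgm1KO control libraries, against 56.2, 54.5, 52.9 and 49.6 CPM in WT fenofibrate libraries and 69.6, 69.4, 68.7 and 78.2 CPM in WT control libraries. With fenofibrate the 2 genotypes overlapped near 52 CPM, and without it they lay about 2 times apart. Dnajc3 had 174, 137, 162 and 165 CPM in Irgm1KO fenofibrate libraries and 116, 125, 131 and 114 CPM in Irgm1KO control libraries, against 158, 175, 158 and 139.7 CPM in WT fenofibrate libraries and 239, 252, 228 and 242 CPM in WT control libraries. Here too the fenofibrate libraries of the 2 genotypes overlapped, with a fitted log2 difference of 0.02 ± 0.08 between them.

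For the chaperones the Irgm1KO cells ended higher than the WT cells under fenofibrate. Hspa5 had 2223, 1979, 2046 and 2123 CPM in Irgm1KO fenofibrate and 2114, 1969.9, 2021 and 1929 CPM in Irgm1KO control libraries, against 1817, 1786, 1630.4 and 1492 CPM in WT fenofibrate and 2742, 2552, 2401 and 2722 CPM in WT control libraries. The 2 Irgm1KO groups overlapped (log2 0.06 ± 0.07), and the 2 WT groups did not (log2 -0.63 ± 0.07). Sdf2l1 had 160.5, 182, 162 and 161 CPM in Irgm1KO fenofibrate and 126, 122, 122 and 115 CPM in Irgm1KO control libraries, against 131, 133, 115 and 105 CPM in WT fenofibrate and 207, 198, 189 and 207 CPM in WT control libraries. Its log2 values were 0.46 ± 0.07 with fenofibrate in Irgm1KO and -0.73 ± 0.07 in WT.

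Xbp1 had the smallest difference of the 10. It had 196, 201, 192 and 199 CPM in Irgm1KO fenofibrate and 180.3, 184, 178 and 189 CPM in Irgm1KO control libraries, against 171, 157, 175 and 158 CPM in WT fenofibrate and 193, 195, 192 and 197 CPM in WT control libraries. The WT fenofibrate group was the lowest, and the Irgm1KO control libraries lay between it and the other groups, with no overlap on either side. Means of the remaining members, in the order Irgm1KO fenofibrate, Irgm1KO control, WT fenofibrate and WT control, were 249.7, 225, 208 and 322 CPM for Pdia4, 151, 124, 116 and 163 CPM for Manf, and 67.6, 63.5, 49.5 and 66.2 CPM for Creld2. For Hsp90b1 they were 1549.8, 1375, 1291 and 1664 CPM, and for Dnajb9 54.6, 47.2, 59.6 and 71.5 CPM.

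**Figure D4:**
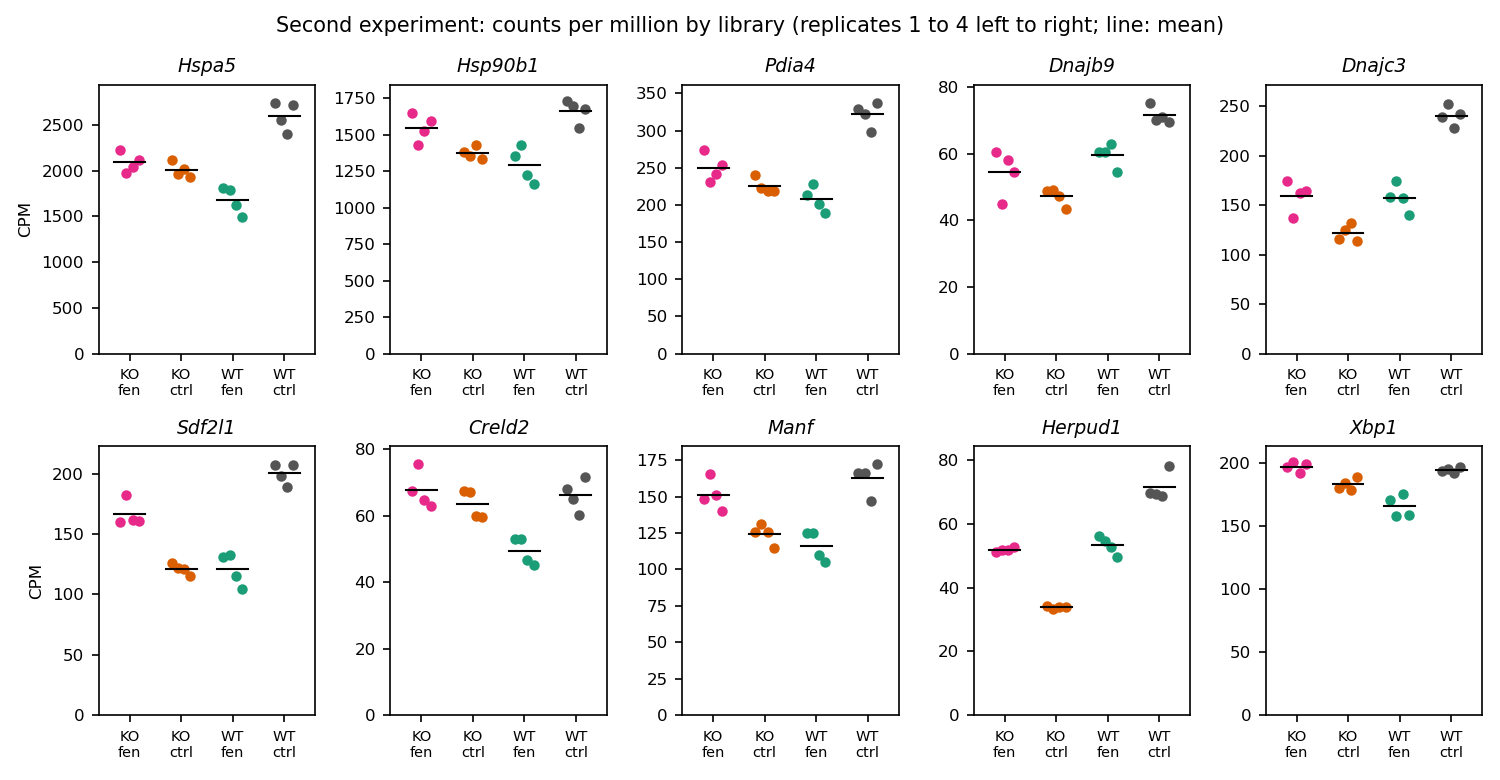
CPM of each member in the 16 libraries of the second experiment; KO is Irgm1KO, fen is fenofibrate and ctrl is control, with replicates 1 to 4 from left to right and a line at the mean. WT control is the highest group for 8 of the 10 members by mean, and Herpud1 is lowest in Irgm1KO control.

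As group pairs, all 10 members were lower with fenofibrate in WT with no overlap between libraries, as were 18% of all tested genes, and the members' median was -0.46. In Irgm1KO, all 10 had values above 0 with fenofibrate, and 5 of them (Herpud1, Sdf2l1, Dnajc3, Manf and Xbp1) did not overlap, as did 20.7% of all tested genes, with a median of 0.19. Between control cells, 9 members were lower in Irgm1KO than in WT with no overlap (Creld2 was the exception), as were 26.3% of all tested genes, with a median of -0.45. The largest of these were Herpud1 at -1.08 ± 0.05, Dnajc3 at -0.98 ± 0.08 and Sdf2l1 at -0.72 ± 0.07, the genes that also fell furthest in Irgm1-KO in the first experiment. Between fenofibrate cells, 7 members were higher in Irgm1KO than in WT with no overlap, as were 15.2% of all tested genes, and the median was 0.26. These 4 pairs share libraries with each other and with the difference that chose the members.

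Fenofibrate and control libraries of one replicate number went together within a genotype, so the effect could be read pair by pair. For Herpud1 the log2 ratios (CPM + 1) were 0.57, 0.63, 0.60 and 0.62 in the Irgm1KO pairs and -0.30, -0.34, -0.37 and -0.65 in the WT pairs. For Sdf2l1 they were 0.34, 0.58, 0.41 and 0.48 in the Irgm1KO pairs and -0.65, -0.57, -0.71 and -0.98 in the WT pairs. For 8 members, every Irgm1KO pair was above 0 and every WT pair below 0; Dnajb9 and Creld2 had 1 Irgm1KO pair each below 0, at -0.13 and -0.0032. For Trib3 the ratios were -0.49, 0.07, 0.13 and -0.26 in the Irgm1KO pairs and 2.56, 3.36, 3.22 and 3.82 in the WT pairs. WT pair 4 was the furthest from 0 for all 10 members and for Trib3, which had 84.3 CPM in its fenofibrate library.

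**Figure D5:**
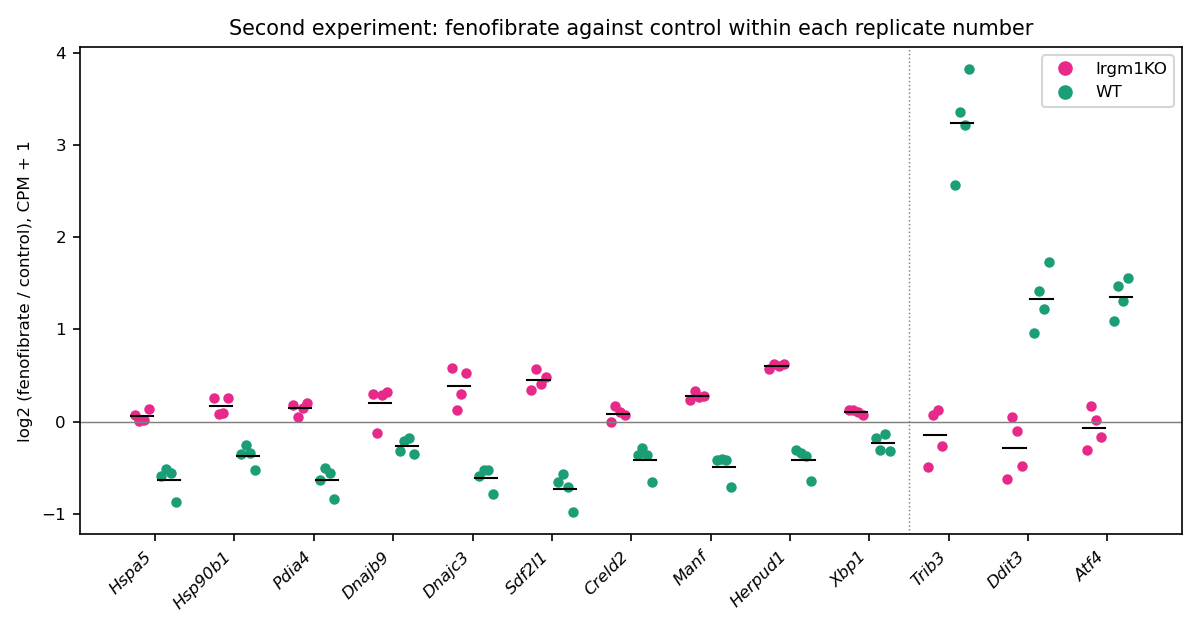
Log2 ratio of fenofibrate to control (CPM + 1) within each replicate number, for the 10 members and for Trib3, Ddit3 and Atf4 (right of the dotted line), with a line at the mean of 4 pairs. Irgm1KO pairs of the members lie above 0, except 1 pair each of Dnajb9 and Creld2, and WT pairs below 0, while the 3 ATF4-arm genes lie between 0.96 and 3.82 in the WT pairs and around 0 in the Irgm1KO pairs.

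The 2 averages of this design, over treatments and over genotypes, are distinct from the difference between the effects and were tested. An average near 0 here can hold opposite effects. Averaged over treatments, 2 members were called higher and 5 lower in Irgm1KO against WT, and over all tested genes the shares were 28.6% and 27%. Herpud1 fell by 0.56 ± 0.03 (edgeR adjusted p = 1.55e-09), Dnajc3 fell by 0.48 ± 0.05 (edgeR adjusted p = 1.31e-06) and Dnajb9 fell by 0.36 ± 0.05 on the log2 scale (edgeR adjusted p = 2.45e-05). Sdf2l1 (log2 -0.13 ± 0.05) and Pdia4 (log2 -0.13 ± 0.05) fell, and Creld2 (log2 0.20 ± 0.05, edgeR adjusted p = 0.00437) and Xbp1 (log2 0.08 ± 0.03, adjusted p = 0.0259) rose. With log2 Xist as a covariate, 1 rose and 3 fell, and Xbp1 (log2 0.06, edgeR adjusted p = 0.105), Sdf2l1 (log2 -0.13, adjusted p = 0.0505) and Pdia4 (log2 -0.12, adjusted p = 0.0659) did not pass. Xist ran from 1.07 to 116 CPM in Irgm1KO fenofibrate, 1.31 to 143 CPM in Irgm1KO control, 0 to 137 CPM in WT fenofibrate and 0.00843 to 110.3 CPM in WT control libraries. Libraries low and high in this transcript of female cells thus stood in every group, but not evenly by genotype. With and without fenofibrate, Xist was at most 1.78 CPM in WT replicates 2 and 4 and in Irgm1KO replicate 3, and at least 50.2 CPM in all others. The fits above counted every library as independent, though libraries of one replicate number went together within a genotype, so their p-values may be too small. In the paired form of this test, on counts summed per replicate number, 1 member rose and 5 fell. Xbp1 did not pass there (log2 0.07, edgeR adjusted p = 0.16). Hspa5, Hsp90b1 and Manf had averages of -0.03, -0.01 and -0.00, and did not pass.

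Averaged over genotypes, 1 member rose and 4 fell with fenofibrate, while 26.8% of all tested genes rose and 23.5% fell. Hspa5 fell by 0.29 ± 0.05 (edgeR adjusted p = 0.00011) and Pdia4 fell by 0.24 ± 0.05 on the log2 scale (edgeR adjusted p = 0.000361). Both averages fell through the WT cells alone, as the Irgm1KO values were above 0 (0.06 ± 0.07 for Hspa5 and 0.15 ± 0.06 for Pdia4). Creld2 (log2 -0.17 ± 0.05) and Sdf2l1 (log2 -0.14 ± 0.05) also fell. Herpud1 rose by 0.10 ± 0.03 (edgeR adjusted p = 0.0215), an average of values of opposite sign on the log2 scale; its mean was 52.61 CPM over the 8 fenofibrate and 52.64 CPM over the 8 control libraries. With the replicate block, Hsp90b1 (log2 -0.10, adjusted p = 0.034) and Manf (log2 -0.10, adjusted p = 0.0261) fell too, which made 6.

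Leaving out single libraries, 1 or 2 members rose and 3 to 5 fell in Irgm1KO, and Xbp1, Sdf2l1 and Pdia4 were the calls that were lost. Without WT control replicate 3, Irgm1KO control replicate 4 or WT fenofibrate replicate 2 or 4, Xbp1 was not called, and 3 fell without Irgm1KO fenofibrate replicate 3, WT fenofibrate replicate 2 or WT control replicate 1 or 4. With fenofibrate, 0 or 1 rose and 3 to 7 fell, and Herpud1 and Sdf2l1 were the calls that were lost. Herpud1 was not called without Irgm1KO fenofibrate replicate 1, Irgm1KO control replicate 2 or 4, WT fenofibrate replicate 1 or WT control replicate 1, 2 or 3, and 7 members fell without Irgm1KO fenofibrate replicate 1 or WT control replicate 3. In this experiment the macrophage list summed to 15304 to 18691 CPM in Irgm1KO fenofibrate, 10799 to 13024 CPM in Irgm1KO control, 14319 to 22961 CPM in WT fenofibrate and 22569 to 31186 CPM in WT control libraries. The plasma and B cell list summed to 28.2 to 46.0, 33.9 to 57.3, 26.7 to 42.7 and 55.4 to 74.7 CPM in the same order, and Ighm averaged 11.9, 8.22, 13.8 and 47.1 CPM. Ighm led this list only in WT control. Sdc1 led it in the other groups and averaged 20.5 ± 11.1 CPM in Irgm1KO fenofibrate and 30.2 ± 13.5 CPM in Irgm1KO control libraries (SD, n = 4 each). For Sdc1 the fitted difference between the fenofibrate effects was -0.87 ± 0.55 on the log2 scale. In the group order of the macrophage list, the plasmacytoid dendritic cell list summed to 5.47 to 6.51, 9.53 to 14.9, 7.27 to 18.4 and 1.70 to 2.65 CPM, and the conventional dendritic cell list to 55.8 to 71.7, 54.8 to 59.0, 8.50 to 24.7 and 27.3 to 45.7 CPM. In the plasmacytoid list 2 genes passed the filter, and with fenofibrate in Irgm1KO they moved apart, Cox6a2 by log2 0.95 ± 0.27 and Pacsin1 by -2.66 ± 0.28. The part of these lists in the levels of the members was not tested.

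The other lists in the averages showed where the members stood among their pathway. With fenofibrate, averaged over genotypes, 15 of 30 tested further folding genes rose and 6 fell (median log2 0.10, against 0.02 over all genes), and 20 of 31 translocation and secretion genes rose and 4 fell (median 0.16), while the members' median was -0.11. Ssr4, a subunit of the translocon-associated protein complex, rose to 109 ± 8.76 CPM with fenofibrate against 87.9 ± 6.50 CPM in control libraries (SD, n = 8 each; log2 0.31 ± 0.03, edgeR adjusted p = 9.68e-07). Ero1a, the oxidase that charges disulfide isomerases, rose by 0.38 ± 0.07 (edgeR adjusted p = 0.000174). In the ATF4 arm, 14 of 18 rose and 1 fell with fenofibrate (median 0.66), and 12 rose and 3 fell in Irgm1KO averaged over treatments (median 0.45). Of all tested genes, 26.8% rose and 23.5% fell with fenofibrate, and 28.6% rose and 27% fell in Irgm1KO.

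Across all 28 libraries, with each experiment centred on its own mean, the members fell into looser and tighter pairs. On log2 CPM, Pearson's r was 0.955 between Sdf2l1 and Manf, 0.932 between Herpud1 and Dnajc3, and 0.886 between Hsp90b1 and Pdia4. It was 0.251 between Hspa5 and Herpud1, 0.183 between Xbp1 and Dnajc3, and -0.04 between Herpud1 and Creld2. Hspa5, Xbp1 and Creld2 correlated at 0.746 to 0.823 with each other. These values describe libraries that share groups and batches, and no p is given.

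The non-member genes most like Hspa5, among 8910 genes compared, were Pdia3 (r = 0.962) and Pdia6 (r = 0.89), both disulfide isomerases, and Surf4 (r = 0.858), a cargo receptor of the early secretory pathway, followed by Gm12250 and Cdk2ap2. Pdia3 averaged 1652 ± 68.6 CPM in Irgm1KO fenofibrate, 1561 ± 48.1 CPM in Irgm1KO control, 1369 ± 107 CPM in WT fenofibrate and 1926 ± 79.5 CPM in WT control libraries (SD, n = 4 each). Among those most like Xbp1 were Oaz1 (r = 0.96), Blvra, Sdhd and Tspan4 (r = 0.927 for the last), none of them in the 7 pathway lists. Those most like Herpud1 were Nxpe5 (r = 0.977), Hsd17b4, Cyb5b, Slc9a9 and Igfbp4 (r = 0.958 for the last), again outside the lists.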

How the data were processed

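The authors deposited a table of raw counts for each experiment, with genes as Ensembl identifiers. The submitters' processing notes name fastp, STAR, DESeq2 and build GRCm39. The sources used here state no versions or roles, no counting tool, no annotation and no strand setting. Libraries were grouped by title and columns matched by name.

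Tests used edgeR 4.0.16 under R 4.3.3 (filterByExpr, minimum count 10 and total 15; TMM; robust quasi-likelihood fit over all groups of an experiment; Benjamini-Hochberg over all tested genes, threshold 0.05). The standard error is the log2 fold change divided by the square root of F. CPM uses scaled library sizes, and ratios add 1 CPM. Library totals are given with the results, and every pair of libraries in a group differed by more than counting noise (chi-square per degree of freedom of at least 21.5). The scripts were tested on simulated counts. DESeq2 1.42.0, other scalings, filters, covariates and left-out libraries were tried as alternatives.

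The members and all gene lists were chosen with earlier results of these data known. The text names the 10 members, Irgm1, Ifnar1, Trib3, Ddit3 and Atf4, and takes further genes from up to 2 called genes per list and comparison with the largest change and at least 5 CPM in a group, and from the 5 genes most correlated with Hspa5, Xbp1 and Herpud1; Lyz2, Csf1r, Adgre1, Ighm and the other markers come from the marker lists. Some genes that these rules name are not reported here. Within a genotype of the second experiment, fenofibrate and control libraries of 1 number deviated together from their group means, with r from 0.204 to 0.815 over 8 pairs, against -0.465 to 0.225 for other numbers, so the numbers of the titles pair these libraries.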

Additional observations from a re-analysis of the deposited data

Results flagged for a closer look

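Chance flags about 1 in 20 groups as holding a library far from the other 3, and 70 groups of 4 libraries were screened. Such a library was found 4 times: Hspa5 at 2818 CPM in Irgm1-KO replicate 3, Pdia4 at 223 CPM in Irgm_IFNAR-KO replicate 4, Sdf2l1 at 182 CPM in Irgm1KO fenofibrate replicate 2 and Herpud1 at 78.2 CPM in WT control replicate 4. In each case it was the highest of its group.

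For 8 members every Irgm1KO pair moved up with fenofibrate and every WT pair down, and this difference was not tested because it chose the members. On the log2 scale the fenofibrate effect in Irgm1KO minus that in WT was 0.69 for Hspa5, 0.54 for Hsp90b1, 1.04 for Herpud1, 0.34 for Xbp1, 1.00 for Dnajc3, 1.18 for Sdf2l1, 0.78 for Pdia4 and 0.77 for Manf.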

How the results depend on the processing

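DESeq2 size factors, the DESeq2 test, no filter on low counts, leaving out the most abundant gene, log2 Xist as a covariate, fits of only the groups compared (in the second experiment run only for fenofibrate within a genotype, with member medians of 0.19 in Irgm1KO and -0.46 in WT) and left-out libraries were tried; the cause of the shifts below was not tested. In Irgm1-KO against WT, 4 to 7 members fell over the alternatives, and 4 to 7 when single libraries were left out. Fits of only the groups compared gave 4, and so did the replicate block, where Hsp90b1 and Manf were not called. The replicate numbers do not pair the libraries of the first experiment (r from -0.887 to 0.884). In Irgm_IFNAR-KO against Irgm1-KO, 7 rose and 1 fell (Creld2) with Xist, 7 rose without WT replicate 2 and Irgm1-KO replicate 3, and 2 to 5 rose with single libraries left out. In Irgm_IFNAR-KO against WT, 1 rose by the DESeq2 test, and 1 rose and 1 fell with Xist. For Irgm1KO against WT averaged over treatments, 1 rose with no filter, 1 with the replicate block on summed counts, and 1 rose and 3 fell with Xist; single libraries left 1 to 2 that rose and 3 to 5 that fell. For fenofibrate averaged over genotypes, 0 rose with no filter; single libraries left 0 to 1 that rose and 3 to 7 that fell. The paired fits changed no other call beyond those given with the results.

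Signs turned only where a member did not pass the test of that same comparison in the main fit. With Xist the log2 values were 0.024 for Creld2 in Irgm1-KO against WT, 0.042 for Xbp1 and 0.053 for Dnajb9 in Irgm_IFNAR-KO against WT, and 0.0048 for Hsp90b1 and 0.010 for Manf in the genotype average. Without WT replicate 2 and Irgm1-KO replicate 3 they were 0.024 for Hspa5 in Irgm_IFNAR-KO against Irgm1-KO, and 0.045 for Xbp1 and 0.065 for Dnajb9 in Irgm_IFNAR-KO against WT. With single libraries left out, Irgm_IFNAR-KO against Irgm1-KO ranged from -0.27 to 0.024 for Hspa5 and -0.028 to 0.20 for Xbp1. Irgm_IFNAR-KO against WT ranged from -0.22 to 0.046 for Xbp1, -0.24 to 0.066 for Dnajb9 and -0.081 to 0.0010 for Dnajc3, and Irgm1-KO against WT from -0.16 to 0.054 for Creld2. The genotype average ranged from -0.031 to 0.019 for Hsp90b1 and -0.033 to 0.013 for Manf, and the fenofibrate average from -0.068 to 0.0037 for Dnajb9. Over all genes, calls moved by more than 1.5 times with Xist in Irgm1-KO against WT (4240 rose, main value 2767), in Irgm_IFNAR-KO against Irgm1-KO (4631, main value 3014) and in Irgm_IFNAR-KO against WT (2087 rose and 2124 fell, main values 552 and 1150), where the DESeq2 test gave 834 that rose and left-out libraries as few as 337.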
